A study of Mus musculus with 12 samples.

Results

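The 5 circRNAs described here were mmu_circRNA_34829 of Edem2, mmu_circRNA_40842 of Adipor2, mmu_circRNA_35589 and mmu_circRNA_35588 of Gm20754, and mmu_circRNA_20066, which the authors' list places under Gm553. They were chosen by their measured course, as 5 of the 14236 circRNA probes on the array: the signal lay above sham at 5 min after middle cerebral artery occlusion (MCAO) and below sham at 24 h. Their differences from sham are therefore given as a description, with standard errors and no p-value. All 5 probes were called well above background on all 12 arrays and were among the 10664 probes kept for testing.

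Whole blood was drawn by cardiac puncture from male Balb/c mice, an inbred albino strain, with an age of 8 weeks on the labels and an older age in the study's methods. A silicon-coated nylon filament closed the middle cerebral artery under isoflurane for 5 min, 3 h or 24 h. The sham mice had the same surgery with an occlusion of 0 min. The 4 groups had 3 arrays each. The study's supplement calls the arrays of a group biological replicates. The p-values below set a difference against the spread between such arrays, estimated over all 4 groups. The sham arrays carry the time point 0 h, and no sham array of a later time point was analysed here. Before labelling with the dye Cy3, the RNA was digested with RNase R, an exonuclease that degrades linear RNA, so that the probes of the Arraystar Mouse circRNA Array v2 read mainly circular transcripts. The array has circRNA probes and no set of mRNA markers, and the labelled tissue was not checked against blood cell markers. In whole blood, fewer cells of a type and less of a circRNA per cell cannot be told apart.

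A circular RNA forms when a downstream splice donor joins an upstream splice acceptor, which leaves a covalently closed molecule without free ends. Such molecules resist exonucleases and are long-lived, and blood cells, in particular red cells and platelets, carry many of them. Edem2 encodes a protein of the endoplasmic reticulum (ER) that takes part in trimming mannose from misfolded glycoproteins, which marks them for ER-associated degradation. Adipor2 encodes a receptor for adiponectin, a hormone of fat tissue that acts in part through AMP-activated protein kinase (AMPK) and PPAR-alpha. Gm20754 and Gm553 are annotated as long non-coding RNA genes, and no function is given for them here. The array measures the circles of these genes and says nothing of the proteins.

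All places are in the mm10 (GRCm38) build. The circle mmu_circRNA_34829 (probe ASCRP4002631) was listed as exonic, from chr2:155708931-155726674 on the minus strand, inside Edem2. Likewise exonic, mmu_circRNA_40842 (probe ASCRP4005057) came from chr6:119361827-119365380 on the minus strand, inside Adipor2. Both circles of Gm20754 were listed as intronic and began at the same base of the plus strand, mmu_circRNA_35589 (probe ASCRP4006959) at chr3:73277865-73341175 and mmu_circRNA_35588 (probe ASCRP4010759) at chr3:73277865-73339144, so that their far ends lay 2031 bp apart. The smallest, mmu_circRNA_20066 (probe ASCRP4007838), was listed as sense overlapping at chr1:52522221-52523151 on the plus strand. In RefSeq it started 1518 bp beyond the end of Gm553, outside that gene, and at the first base of Rps27a-ps1 (chr1:52522221-52522731), a pseudogene related to the ribosomal protein gene Rps27a. It is called mmu_circRNA_20066 from here on, since its listed parent gene does not contain it. Pseudogenes resemble their parent genes, and which further transcripts its probe may read was not tested.

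The sequences of the junctions and probes were not used here. To show from where the 3 annotated parent genes are transcribed, the 250 bases before the start that RefSeq (GRCm38.p6) uses are printed 5′ to 3′ on the strand of the gene, at chr2:155729476-155729725 for Edem2, chr6:119388735-119388984 for Adipor2 (inside the span of the gene, which has an earlier start as well) and chr3:73066101-73066350 for Gm20754, with motif matches in capitals:
Edem2: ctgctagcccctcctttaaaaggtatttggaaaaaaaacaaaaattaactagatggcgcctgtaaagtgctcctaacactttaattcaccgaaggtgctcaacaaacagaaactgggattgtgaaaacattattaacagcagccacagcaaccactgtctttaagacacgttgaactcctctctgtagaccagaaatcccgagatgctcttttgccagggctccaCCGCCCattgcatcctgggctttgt
Adipor2: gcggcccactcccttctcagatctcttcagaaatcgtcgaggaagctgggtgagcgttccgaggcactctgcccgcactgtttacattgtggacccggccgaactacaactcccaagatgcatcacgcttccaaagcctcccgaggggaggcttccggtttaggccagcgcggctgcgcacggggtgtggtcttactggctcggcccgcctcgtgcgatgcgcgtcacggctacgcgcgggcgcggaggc
Gm20754: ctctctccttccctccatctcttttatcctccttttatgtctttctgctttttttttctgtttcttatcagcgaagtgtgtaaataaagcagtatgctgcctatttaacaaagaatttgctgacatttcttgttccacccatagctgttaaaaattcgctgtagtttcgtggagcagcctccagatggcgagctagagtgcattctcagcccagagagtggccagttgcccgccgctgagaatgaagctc
The motifs searched on both strands were the GC box GGGCGG, the CCAAT box CCAAT, the TATA box TATAAA and the GATA site AGATAA. The single match was a GC box on the opposite strand of Edem2, beginning 25 bases before the start. Among all 32851 promoter windows of the same length, 32.7% held a GC box, 33.8% a CCAAT box, 12.4% a TATA box and 9.99% a GATA site. With the single match in Edem2, the 3 parent genes shared none of these motifs in the windows shown. The windows of Edem2 and Gm20754 had a GC content of 44.4% and that of Adipor2 64.8%.

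The 12 arrays lay on 2 slides, and slide and group overlapped. Slide 1 held sham, 5 min and replicates 1 and 2 of 3 h, and slide 2 held replicate 3 of 3 h and all of 24 h. Negative control spots had median raw intensities of 25 to 27 on slide 1 and 83.5 to 101 on slide 2. Median raw intensities over all circRNA probes lay between 83 and 112.75 for sham arrays, between 50 and 69 for 5-min arrays, between 99.5 and 200 for 3-h arrays and between 160 and 220.5 for 24-h arrays, so the 5-min arrays were the dimmest before normalization. The values that follow are log2 intensities after background correction and quantile normalization, which gives all arrays the same distribution, and probes are compared with themselves only.

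The Edem2 circle gave log2 intensities of 12.99, 12.69 and 12.47 on the sham arrays, 14.78, 13.47 and 14.22 on the 5-min arrays, 12.22, 12.10 and 12.51 on the 3-h arrays and 11.35, 10.07 and 10.58 on the 24-h arrays. All arrays of 5 min lay above all sham arrays, and all arrays of 24 h lay below them. At 3 h the array of slide 2 lay at the lower end of the sham range, and both arrays of slide 1 lay below it. The group means were 12.72 ± 0.26 (SD, n = 3) in sham, 14.16 ± 0.66 at 5 min, 12.28 ± 0.21 at 3 h and 10.67 ± 0.64 at 24 h. The log2 difference from sham was 1.44 at 5 min, -0.44 at 3 h and -2.05 at 24 h, with an SE of 0.39. This circle was thus 2.71-fold higher than sham at 5 min, 4.14-fold lower at 24 h, and 11.2-fold higher at 5 min than at 24 h. Its middle 5-min array, replicate 3, lay close to the mean, whereas replicates 1 and 2 were apart by more than the whole sham range.

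The Adipor2 circle read 11.50, 11.03 and 10.72 on the sham arrays, 12.83, 12.90 and 12.97 on the 5-min arrays, 10.93, 11.39 and 9.62 on the 3-h arrays and 8.02, 8.58 and 8.84 on the 24-h arrays. The 5-min arrays were nearly equal to each other, with a mean of 12.90 ± 0.07 (SD, n = 3) against 11.08 ± 0.39 in sham. At 3 h the arrays of slide 1 lay in the sham range and the array of slide 2 lay below it, and the SD was 0.92. The log2 difference from sham was 1.82 at 5 min, -0.43 at 3 h and -2.60 at 24 h (SE 0.42). Between 5 min and 24 h the signal differed 21.4-fold, the widest course among the 5 circles.

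The first circle of Gm20754, mmu_circRNA_35589, read 8.52, 9.17 and 9.48 on the sham arrays, 10.99, 11.15 and 11.07 on the 5-min arrays, 9.70, 10.28 and 8.78 on the 3-h arrays and 7.58, 7.47 and 7.88 on the 24-h arrays. As with Adipor2, the 5-min arrays lay within a narrow band (SD 0.08, n = 3), above sham, and the 24-h arrays lay below it. The log2 difference from sham was 2.01 at 5 min, 0.53 at 3 h and -1.41 at 24 h (SE 0.38), and the signal at 5 min was 10.8-fold that at 24 h. At 3 h the arrays of slide 1 lay above the sham range and that of slide 2 within it.

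Its neighbour mmu_circRNA_35588 read 8.43, 8.83 and 9.04 on the sham arrays, 10.83, 11.04 and 10.99 on the 5-min arrays, 9.54, 10.19 and 8.00 on the 3-h arrays and 7.41, 7.22 and 6.65 on the 24-h arrays. No 3-h array lay within the sham range here: the arrays of slide 1 were above it and the array of slide 2 was below it, which gave an SD of 1.13. The log2 difference from sham was 2.19 at 5 min, 0.48 at 3 h and -1.67 at 24 h (SE 0.46), with 14.5-fold more signal at 5 min than at 24 h.

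The last, mmu_circRNA_20066, read 12.74, 12.20 and 11.85 on the sham arrays, 14.99, 13.50 and 14.40 on the 5-min arrays, 12.05, 12.06 and 12.26 on the 3-h arrays and 10.88, 10.79 and 11.38 on the 24-h arrays. Its 3-h arrays were close together within the sham range, and its 5-min arrays were spread (SD 0.75, n = 3) in the same order as those of Edem2. That order was also found in mmu_circRNA_35586 and mmu_circRNA_38590, described below, which had other courses. The log2 difference from sham was 2.03 at 5 min, -0.14 at 3 h and -1.25 at 24 h (SE 0.38), and the 5-min mean was 9.73-fold the 24-h mean.

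**Figure D1:**
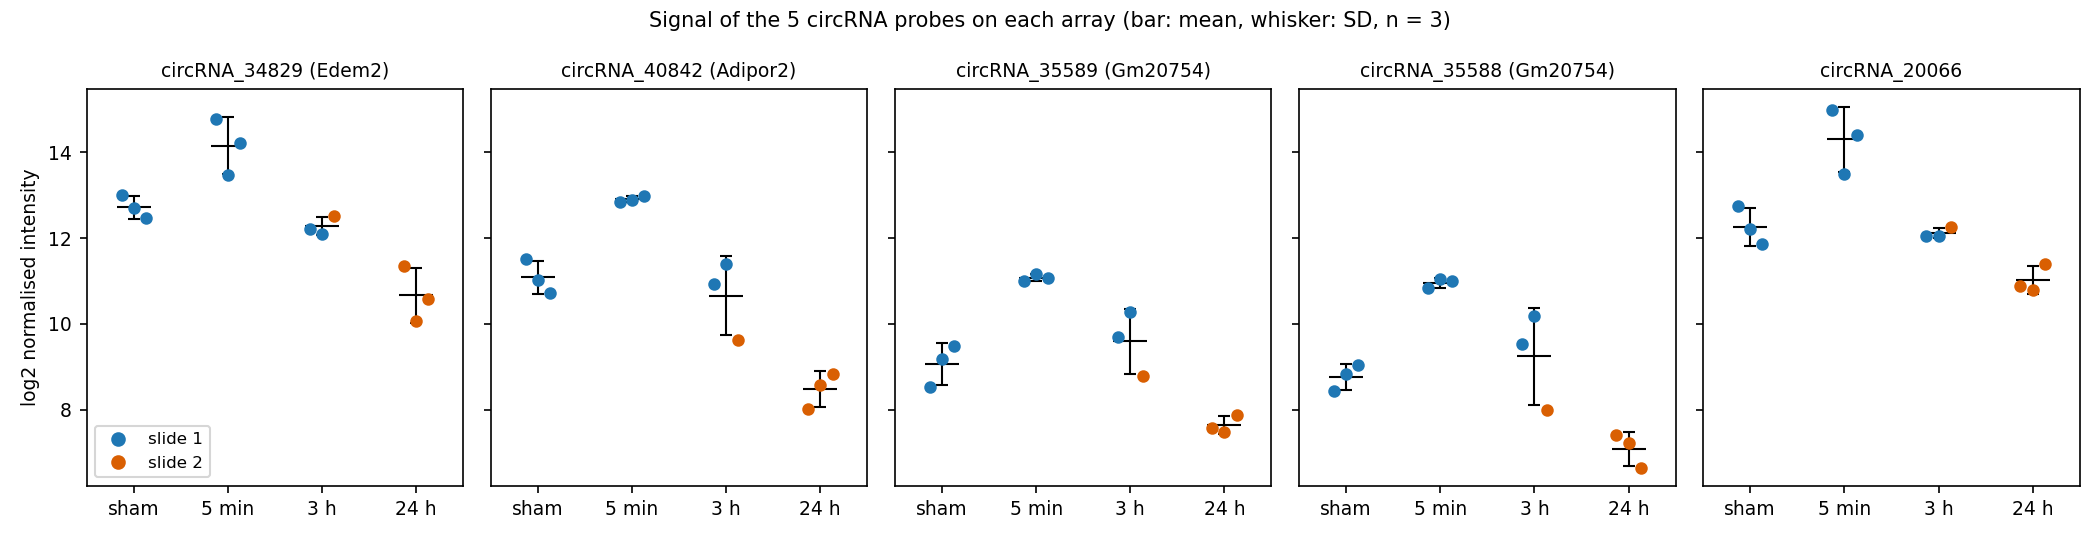
Log2 normalised intensity (y axis) of each of the 5 circRNA probes by group, sham and MCAO of increasing length (x axis), with 1 point per array coloured by slide, the group mean as a bar and the SD as whiskers (n = 3). In every panel the 3 arrays of 5 min lie above and the 3 arrays of 24 h lie below all sham arrays, and at 3 h the slide 2 array lies below the slide 1 arrays for Adipor2 and both Gm20754 circles.

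Over the 5 circles, the median log2 difference from sham was 2.01 at 5 min, -0.14 at 3 h and -1.67 at 24 h, beside medians of 0.10, -0.12 and -0.18 over all probes kept. At 5 min the 5 values ran from 1.44 to 2.19, all beyond the 95th percentile of all probes (1.06). At 24 h they ran from -2.60 to -1.25, and the 5th percentile of all probes was -1.73, so only the Edem2 and Adipor2 circles lay outside that range. Because the rule used these contrasts, the counts are given as a description: 5 of 5 circles were called higher at 5 min by limma at an adjusted p of at most 0.05 (1.74% of all probes were called in that direction), and 5 of 5 were called lower at 24 h (17.7% of all probes). In either direction, 5.31% of all probes were called at 5 min, 4.25% at 3 h and 31.8% at 24 h. All 5 had non-overlapping ranges from sham at 5 min (all arrays above sham in 23.4% of probes), at 24 h (all below in 24.9%) and in both ways (3.01%), and at 3 h the ranges of all 5 overlapped with sham, as in 69% of probes. Leaving out sham replicate 2 or 5-min replicate 3 left 0 of the 5 called at 5 min, and 0 of all probes were then called higher. Without sham replicate 3 a single circle was called (4 of all probes higher), and without 5-min replicate 1 there were 2 (18 probes). Without 5-min replicate 2, 3-h replicate 1 or 24-h replicate 2 there were 3 (143, 24 and 32 probes). Each circle stayed above sham at 5 min when any 1 array was left out. At 24 h, 2 of the 5 were called without sham replicate 2, where 1132 of all probes were called lower. Without sham replicate 3 or without 24-h replicate 2 it was 3 of the 5, beside 1455 and 1306 probes called lower.

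**Figure D2:**
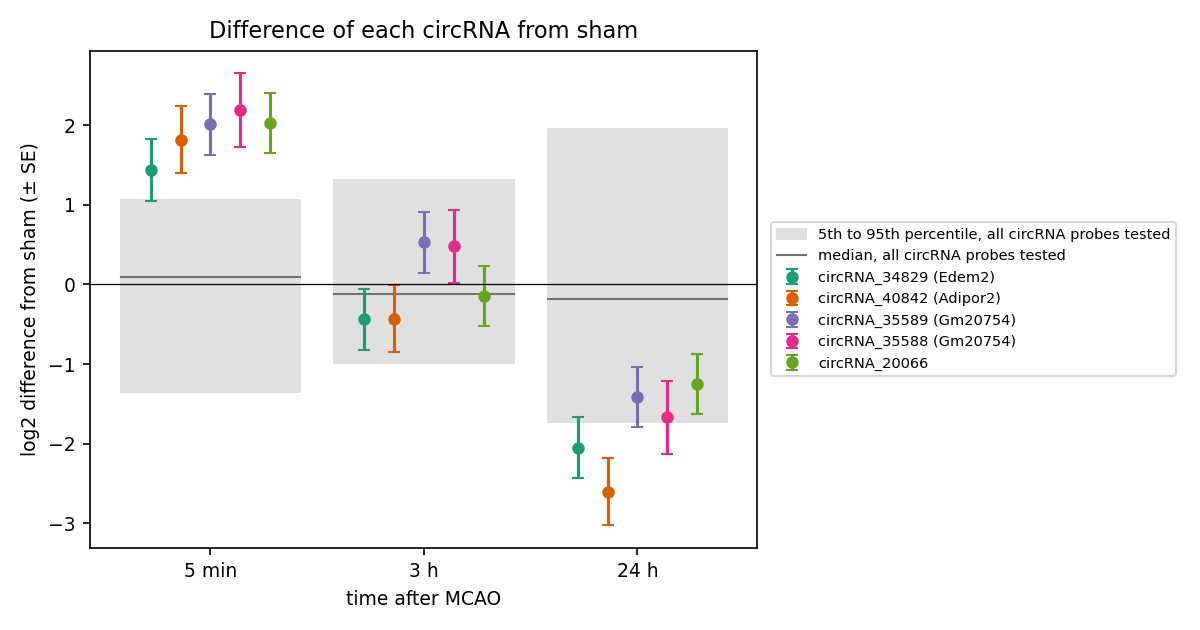
Log2 difference from sham with its SE (y axis) for each of the 5 circles by time after MCAO (x axis), over a grey band from the 5th to the 95th percentile of all 10664 probes kept and a line at their median. The 5 circles lie above the band at 5 min (1.44 to 2.19) and inside it at 3 h, and at 24 h Edem2 (-2.05) and Adipor2 (-2.60) lie below it.

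A call higher at 5 min and lower at 24 h was made for 12 of the 10664 probes (0.113%). They were the 5 circles and 7 probes to which no entry of the authors' list could be matched. That list was made with a fold cut. The differences of the 7 from sham reached 1.89 at 5 min (ASCRP4011336) and -1.95 at 24 h (ASCRP4009317). Each of the 5 circles, which are on that list, had a larger one at 5 min or 24 h, the smallest of these being 2.01 for mmu_circRNA_35589. At 5 min alone ASCRP4011336 lay above Edem2 and Adipor2. At 24 h (-1.87) it lay below both Gm20754 circles and mmu_circRNA_20066. The log2 distance between 5 min and 24 h ran from 1.73 to 4.42 over these 12 probes, with a median of 3.29. Adipor2 had the largest distance and mmu_circRNA_35588 the second, and the unmatched probe ASCRP4011336 came next (3.75). Edem2, mmu_circRNA_35589 and mmu_circRNA_20066 ranked 4, 5 and 7.

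The height above sham at 5 min depended on the normalization. Before it, the raw spot median of Edem2 was 5446 to 9214 at 5 min and 5731 to 7742 in sham, and that of Adipor2 was 2146 to 3677.5 against 2112 to 2364.5. For mmu_circRNA_35589 it was 648 to 1233 against 312.5 to 1005, and for mmu_circRNA_35588 588 to 1151 against 298 to 757. These raw ranges overlapped, whereas that of mmu_circRNA_20066, 5484 to 12739.5 at 5 min, lay above its sham range of 4642 to 5101. Without normalization between arrays, a setting added after the data had been seen, the log2 difference at 5 min was 0.10 for Edem2, 0.35 for Adipor2, 0.65 for mmu_circRNA_35589, 0.82 for mmu_circRNA_35588 and 0.83 for mmu_circRNA_20066. The median of all probes kept was then -0.95. The 5 circles thus kept a level at or somewhat above that of sham on arrays whose other probes were on the whole dimmer, and 0 of the 5 were called by limma in that setting (2 of 10664 probes were called higher). Whether the dimmer 5-min arrays reflect the RNA or the hybridization was not tested.

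**Figure D3:**
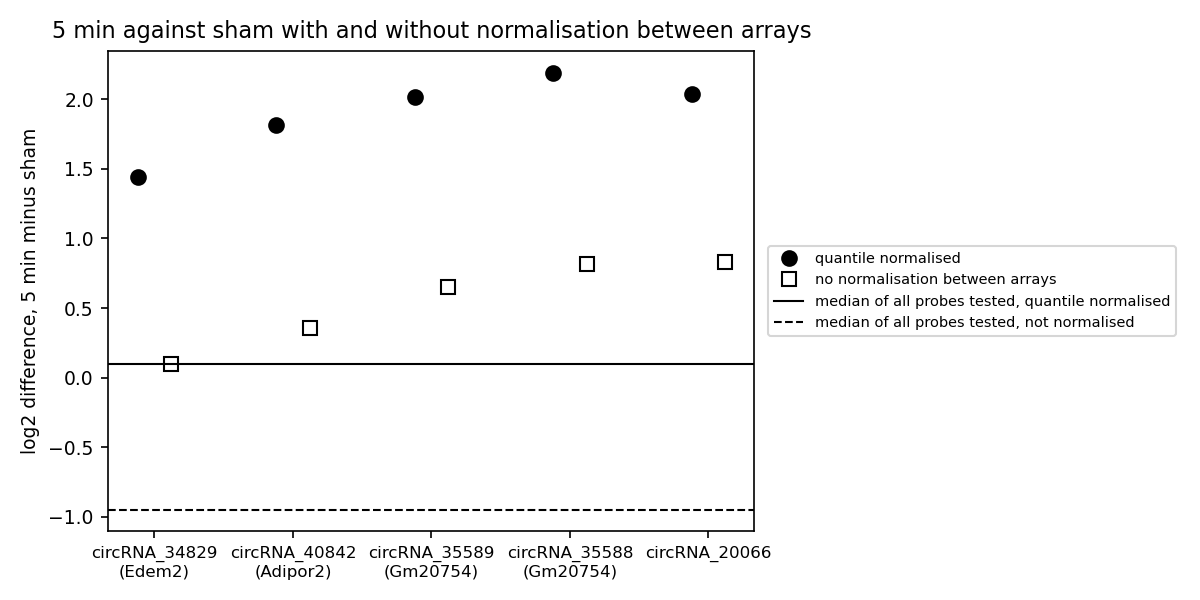
Log2 difference between 5 min and sham (y axis) for the 5 circles (x axis) with quantile normalization (filled circles) and without normalization between arrays (open squares), with lines at the median of all probes kept in each setting (0.10 and -0.95). Each circle lies above the median of its own setting, and without normalization the differences lie between 0.10 and 0.83.

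At 24 h the raw ranges of Edem2 (1112 to 4700), Adipor2 (406 to 501) and mmu_circRNA_20066 (1775.5 to 3270) lay below their sham ranges. Those of mmu_circRNA_35589 (237 to 399) and mmu_circRNA_35588 (181 to 367.5) overlapped with sham at the dimmest sham array, replicate 1. Without normalization between arrays, the log2 differences at 24 h were -1.84 for Edem2, -2.57 for Adipor2, -1.43 for mmu_circRNA_35589, -1.68 for mmu_circRNA_35588 and -1.06 for mmu_circRNA_20066, with a median of 0.07 over all probes. Scaling thus moved the 24-h log2 differences of the 5 circles little, in contrast to those of 5 min. The calls were fewer: without normalization between arrays, 3 of the 5 were called lower at 24 h by limma, where 785 of 10664 probes were.

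Replicate 3 of 3 h, the only array of its group on slide 2, was compared with replicates 1 and 2 on slide 1. This contrast was not used to pick the circles, so it was tested. The lone array of slide 2 was assumed to vary like the arrays of the other groups, from which the SE comes, and a contrast of 1 array against 2 calls fewer changes of a given size than one between groups of 3. For the Adipor2 circle the log2 difference of slide 2 from slide 1 was -1.54 (SE 0.47, 95% confidence interval -2.57 to -0.52, adjusted p = 0.173, limma). For mmu_circRNA_35588 the difference was -1.87 (SE 0.46, interval -2.88 to -0.86, adjusted p = 0.147, limma), and for mmu_circRNA_35589 it was -1.21 (SE 0.47, interval -2.23 to -0.19, adjusted p = 0.248, limma). These differences did not pass the adjustment over 10663 probes, but for both Gm20754 circles they were about as large as the difference of 24 h from sham. The values of Edem2, 0.35 (SE 0.59, interval -0.94 to 1.63, adjusted p = 0.870, limma), and mmu_circRNA_20066, 0.21 (SE 0.58, interval -1.05 to 1.46, adjusted p = 0.933, limma), were smaller, with intervals that reach well to both sides of 0.

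None of all 10663 probes with a value was called between the slides by limma (0%), while 1651 had an unadjusted p under 0.05, and other settings called 0 to 3. Over all probes the slide difference had a median of -0.16, and its 5th and 95th percentiles were -1.34 and 1.28. The Adipor2 circle and mmu_circRNA_35588 lay below that range and the other 3 circles within it. With 1 array of 3 h on slide 2, a difference of the slide and one of that sample cannot be told apart.

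Within slide 2, the 3 arrays of 24 h lay below the 3-h array for each of the 5 circles. The mean at 24 h differed from it by -1.84 for Edem2, -1.14 for Adipor2, -1.14 for mmu_circRNA_35589, -0.90 for mmu_circRNA_35588 and -1.24 for mmu_circRNA_20066 on the log2 scale. Within slide 1, the 3-h arrays differed from sham by -0.56 for Edem2, 0.08 for Adipor2, 0.93 for mmu_circRNA_35589, 1.1 for mmu_circRNA_35588 and -0.21 for mmu_circRNA_20066. Both circles of Gm20754 were therefore still above sham at 3 h on slide 1, and Adipor2 was level with it.

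With slide as a fixed term, the log2 difference between 24 h and sham was -2.40 for Edem2 and -1.45 for mmu_circRNA_20066, larger in size than without that term. It was -1.06 for Adipor2, -0.20 for mmu_circRNA_35589 and 0.20 for mmu_circRNA_35588. Each of these values is the difference without the term minus the slide difference within 3 h, so it rests on the single 3-h array of slide 2 and adds no measurement to the contrast above. None of the 5 circles was then called at 24 h by limma, where 766 of 10664 probes were, 73 of them lower. With slide as a random block 2 of the 5 were called, beside 1992 of all probes, 894 of them lower. The 5-min and sham arrays shared slide 1, so the values at 5 min do not cross slides.

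**Figure D4:**
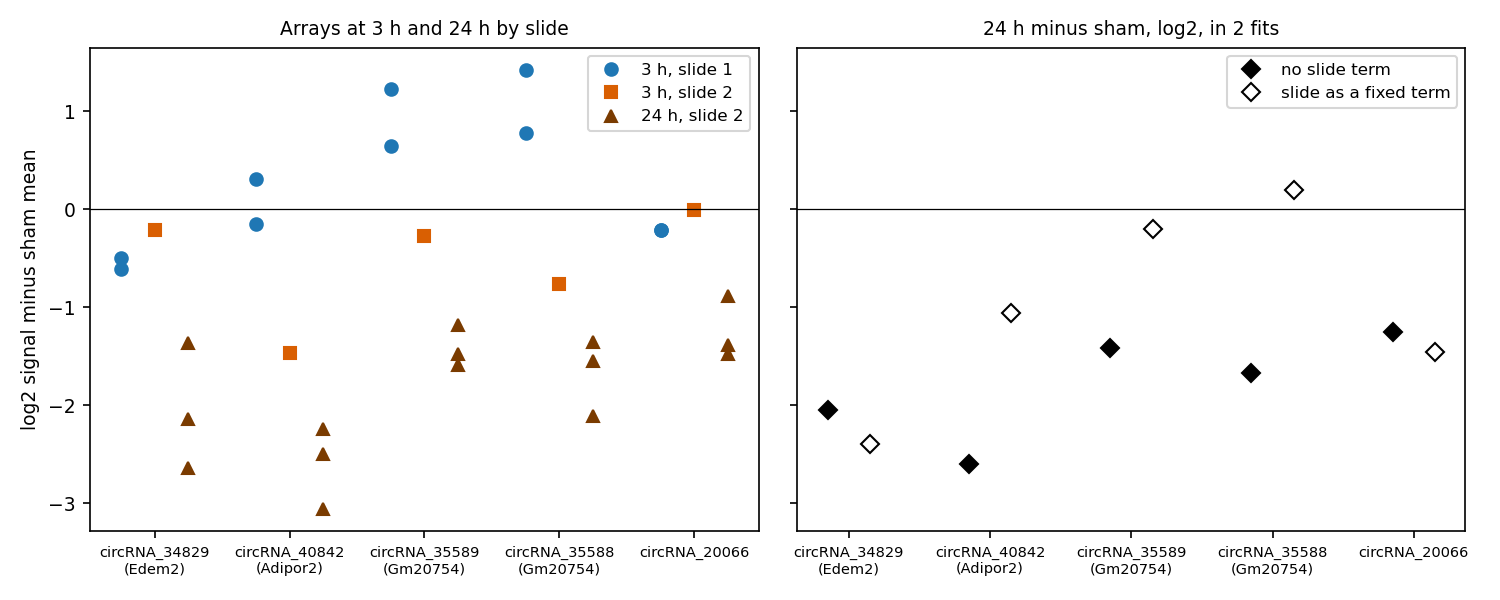
Left, log2 signal minus the sham mean (y axis) of each circle (x axis) on the 3-h arrays of slide 1 (circles), the 3-h array of slide 2 (squares) and the 24-h arrays of slide 2 (triangles). Right, log2 difference between 24 h and sham without a slide term (filled) and with slide as a fixed term (open), which moved from -1.67 to 0.20 for mmu_circRNA_35588 and from -2.05 to -2.40 for Edem2.

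Gm20754, with a length of 528480 bp on chromosome 3, gave 2 further circles in the authors' list, which holds circRNAs with large changes, so that these are no unselected sample of the gene. That list was drawn from these same arrays by the change from sham, so a call of each at some time point was built into it. The circle mmu_circRNA_35587 (chr3:73277865-73333103) starts at the same base as both picked circles, 211514 bp from the start of the gene, and ends 6041 bp before mmu_circRNA_35588. The circle mmu_circRNA_35586 (chr3:73269612-73341175) starts 8253 bp earlier and ends at the same base as mmu_circRNA_35589.

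The circle with the shared start had a similar course to the picked ones. It read 8.00, 8.52 and 8.72 on the sham arrays, 10.42, 10.76 and 10.71 on the 5-min arrays, 9.37, 10.07 and 8.64 on the 3-h arrays and 7.16, 7.51 and 7.76 on the 24-h arrays. Its signal rose at 5 min, by a log2 difference of 2.22 (adjusted p = 0.0146, limma). At 3 h the difference was 0.95 (adjusted p = 0.187, limma) and at 24 h it was -0.94 (adjusted p = 0.0679, limma), neither past the threshold. Other settings did pass: at 24 h the adjusted p by limma was 0.0481 without sham replicate 1, 0.0484 without 3-h replicate 2, 0.0348 without 3-h replicate 3 and 0.0230 with a replicate block in a fit of sham and 24 h alone, and at 3 h it was 0.0498 without 3-h replicate 3. The call at 5 min was lost without sham replicate 2 (adjusted p = 0.0833, limma), without 5-min replicate 3 (adjusted p = 0.0862, limma), with a replicate block in a fit of sham and 5 min alone (adjusted p = 0.0608, limma) and without normalization between arrays (adjusted p = 0.163, limma), and over all settings the adjusted p ran from 0.00728 to 0.163. Its slide difference within 3 h was -1.08 (adjusted p = 0.292, limma), on the same side as those of mmu_circRNA_35589 and mmu_circRNA_35588.

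The circle with the earlier start went up after 5 min, where the picked ones went down. It read 7.05, 6.47 and 6.23 on the sham arrays, 9.09, 6.85 and 7.85 on the 5-min arrays, 8.69, 9.10 and 9.02 on the 3-h arrays and 10.17, 9.67 and 9.29 on the 24-h arrays. It rose at 3 h by a log2 difference of 2.36 (adjusted p = 0.0137, limma) and at 24 h by 3.13 (adjusted p = 4.47e-04, limma), while the difference of 1.35 at 5 min did not pass (adjusted p = 0.0978, limma). Without 5-min replicate 2 it did pass at 5 min (1.89, adjusted p = 0.0472, limma). Among all probes kept, 3.43% were called higher at 3 h and 14.1% at 24 h. It stayed at 3.01 at 24 h with slide as a fixed term, with an adjusted p of 0.0633 by limma, and its slide difference within 3 h was 0.12 (adjusted p = 0.973, limma). At 3 h the call was lost without sham replicate 2, without sham replicate 3 and without 3-h replicate 2, with adjusted p-values by limma of 0.0724, 0.0666 and 0.0768. Among the 4 circles of this gene on the list, the 3 that begin at the same base thus lay below sham at 24 h and the 1 that begins upstream lay above it, but with slide as a fixed term mmu_circRNA_35587 (0.14) and mmu_circRNA_35588 (0.20) were no longer below sham. The difference between the circles was not tested.

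**Figure D5:**
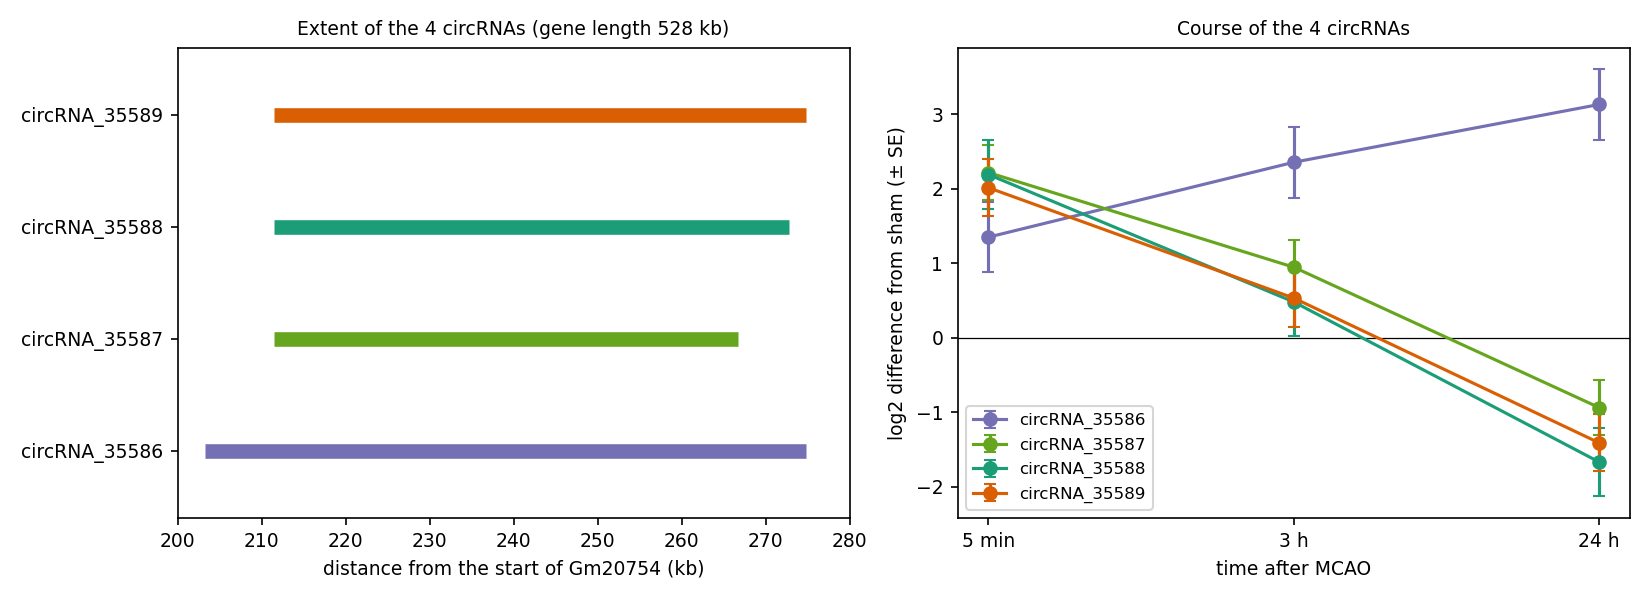
Left, extent of the 4 listed circles of Gm20754 in kb from the start of the gene (x axis), of which mmu_circRNA_35587, mmu_circRNA_35588 and mmu_circRNA_35589 share a start and mmu_circRNA_35586 and mmu_circRNA_35589 share an end. Right, log2 difference from sham with its SE (y axis) by time after MCAO (x axis), where mmu_circRNA_35586 reaches 3.13 at 24 h and the others lie between -1.67 and -0.94.

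The courses of the 5 circles were compared by the root mean square (RMS) difference of their log2 values over the 12 arrays after each probe's mean had been subtracted, where 0 would mean identical courses. For mmu_circRNA_35589 the nearest of all probes kept were mmu_circRNA_35587 (0.224) and mmu_circRNA_35588 (0.335), both circles of the same gene, followed by the unnamed probe ASCRP4009317 (0.509), and the median over all probes was 1.33. For mmu_circRNA_35588 they were mmu_circRNA_35589, the unnamed probe ASCRP4011336 (0.385) and mmu_circRNA_35587 (0.457). Circles that share a start base may share sequence with each other's probes, which was not tested.

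The circles of Edem2 and mmu_circRNA_20066, from different chromosomes, were near to each other as well, at an RMS difference of 0.431. For Edem2 only the unnamed probes ASCRP4001539 (0.404) and ASCRP4002452 (0.428) were nearer, and for mmu_circRNA_20066 its nearest probes were ASCRP4011388 (0.392), Edem2 (0.431) and ASCRP4004120 (0.445).

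For Adipor2 the nearest probes were exonic circles of 3 other genes. They were mmu_circRNA_22847 (ASCRP4005375, 0.458) of Nf2, which encodes the tumour suppressor merlin, mmu_circRNA_34504 (ASCRP4007485, 0.495) of Snrnp200, a helicase of the spliceosome, and mmu_circRNA_013298 (ASCRP4009711, 0.519) of Birc6, an inhibitor of apoptosis. Their log2 differences from sham were 1.00, 0.86 and 0.74 at 5 min and -2.73, -3.40 and -2.96 at 24 h, lower than those of the Adipor2 circle at both times. The points of these comparisons share arrays, slides and normalization. They also hold the group means by which the 5 circles were picked, and the values are a description.

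Other genes of both pathways were looked up by fixed lists of 30 symbols of ER-associated degradation and ER stress and 22 of adiponectin signalling. A single gene of the first list and 2 of the second had a circle among the 903 named in the authors' list, which holds large changes only, so other members of the pathways may be on the array without a name. The authors drew that list from these same arrays, by the size and significance of the change from sham. A call at some time point was therefore built into it, and the p-values below are no independent support.

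Canx encodes calnexin, a chaperone that holds newly made glycoproteins in the ER. Its circle mmu_circRNA_23290 (exonic, chr11:50301757-50308929) read 10.98, 11.87 and 12.03 on the sham arrays, 10.60, 11.10 and 10.93 on the 5-min arrays, 10.83, 10.51 and 11.02 on the 3-h arrays and 9.42, 9.27 and 9.34 on the 24-h arrays. It fell at 24 h by a log2 difference of -2.28 (adjusted p = 2.93e-04, limma) and kept its call in every setting run. At 5 min the difference was -0.75 (adjusted p = 0.161, limma), on the other side of 0 from that of the Edem2 circle. It passed at 5 min without sham replicate 1 (-1.07, adjusted p = 0.0388, limma) and without normalization between arrays (-2.02, adjusted p = 0.00903, limma). Of the glycoprotein pathway, the circles of Edem2 and Canx thus both lay below sham at 24 h, and the circle of Edem2 alone lay above it at 5 min.

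Prkag2 encodes a gamma subunit of AMPK, which binds AMP. Its circle mmu_circRNA_38278 (exonic, chr5:24866078-24889188) read 9.10, 8.70 and 8.42 on the sham arrays, 9.12, 9.96 and 9.68 on the 5-min arrays, 8.45, 8.48 and 6.95 on the 3-h arrays and 6.87, 5.81 and 6.17 on the 24-h arrays. It fell at 24 h by a log2 difference of -2.46 (adjusted p = 0.00125, limma), whereas 0.85 at 5 min, which turned to -0.43 without normalization between arrays, did not pass (adjusted p = 0.233, limma). With slide as a fixed term the 24-h difference was -0.95 (adjusted p = 0.416, limma), and the slide difference within 3 h was -1.51 (adjusted p = 0.201, limma), near that of the Adipor2 circle.

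Ppargc1a encodes PGC-1-alpha, a coactivator of mitochondrial and fatty acid oxidation genes. Its circle mmu_circRNA_38590 (exonic, chr5:51472597-51474411) read 10.15, 10.15 and 10.18 on the sham arrays, 12.27, 10.57 and 11.15 on the 5-min arrays, 12.42, 12.69 and 12.39 on the 3-h arrays and 13.77, 13.46 and 12.98 on the 24-h arrays. It rose at 3 h by a log2 difference of 2.34 (adjusted p = 0.00562, limma) and at 24 h by 3.24 (adjusted p = 1.09e-04, limma), and kept both calls in every setting run. At 5 min its difference of 1.17, which turned to -0.18 without normalization between arrays, did not pass (adjusted p = 0.0842, limma). Of the 2 circles named from the adiponectin list, the circle of Prkag2 thus fell and that of Ppargc1a rose at 24 h, where the Adipor2 circle lay below sham.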

How the data were processed

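For each of the 12 one-colour arrays the authors deposited the output of Agilent Feature Extraction 11.0.1.1, with spot and local background intensities as raw pixel medians, and a table of log2 values, quantile normalized by the authors. The raw medians were used. In R 4.3.3, limma 3.58.1 subtracted the background by normexp (offset 0) and quantile normalized the arrays, and log2 was taken. A circRNA probe was kept if on all 12 arrays it reached 1.1 times the value below which 95% of negative controls lay (10664 of 14236). The 4 groups entered one limma model with a mean-variance trend and Benjamini-Hochberg adjustment over all probes kept, with calls at an adjusted p of at most 0.05. The slide came from the file headers. Names, types and places came from the authors' list of 903 circRNAs, 901 of which matched a single probe within 0.001 of its mean and log2 fold change, and no result was taken from it. The named circRNAs are the 5 picked ones, others of the same parent genes, the 3 nearest probes of each and those of 2 gene lists. The circRNAs and lists were chosen with earlier results of these data known. Between sham and 24 h the deviations of same-numbered arrays from their group means correlated at 0.12 to 0.46 in 3 of 3 pairs. In no other pair of groups were all 3 correlations over 0.1 (-0.52 to 0.42). The labels give no pairing, and differently numbered arrays were not compared, so whether replicate numbers pair these groups was not tested. The procedure was tested on simulated data. Alternatives changed the background, normalization, filter, trend and slide or replicate block, or left out 1 array.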

Additional observations from a re-analysis of the deposited data

Results flagged for a closer look

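Of the circRNAs named here, 7 had every array of 5 min above and every array of 24 h below all sham arrays. The log2 difference of 24 h from 5 min was -3.49 for the Edem2 circle mmu_circRNA_34829, -4.42 for the Adipor2 circle mmu_circRNA_40842, -3.43 for mmu_circRNA_35589, -3.86 for mmu_circRNA_35588 and -3.28 for mmu_circRNA_20066, which had been picked for this course. It was -3.16 for mmu_circRNA_35587, the further circle of Gm20754 with the same start, and -3.30 for mmu_circRNA_38278 of Prkag2. The difference between the time points was not tested, and among all probes kept 3.01% had this arrangement of arrays.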

How the results depend on the processing

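Against sham, the main settings called 566 probes for 5 min, 453 for 3 h and 3391 for 24 h. At 5 min, cyclic loess called 895, the processed signal over its 75th percentile 921 and no normalization between arrays, added after seeing the data, 4185, of which 2 were higher. At 24 h, 766 were called with slide as a fixed term and 1992 with slide as a random block. Between the slides within 3 h, where the main settings called 0, normexp with offset 50 called 2, the processed signal 1, the filter on probes well above background 2 and the fit without trend 3. Leaving out 1 array gave 1 to 1416 calls at 5 min, 99 to 739 at 3 h and 2166 to 3749 at 24 h. At 5 min these were 1319, 1 and 105 without sham replicates 1, 2 and 3, 231, 273 and 1 without 5-min replicates 1, 2 and 3, 203 and 312 without 3-h replicates 1 and 2, and 1416 and 224 without 24-h replicates 1 and 2. At 3 h they were 125 and 204 without sham replicates 2 and 3, 213 and 99 without 3-h replicates 1 and 2, and 739 without 24-h replicate 1, and at 24 h 2166 without sham replicate 2.

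The median log2 difference of the 5 circles at 5 min was 0.65 without normalization between arrays. At 24 h it was -1.41 without background subtraction, -1.37 with offset 50, -1.06 with slide as a fixed term and -1.30 with slide as a random block. The reversal of mmu_circRNA_35588 at 24 h, to 0.20 with slide as a fixed term, was the only change of sign among differences that had been called. It follows from the construction, since that term subtracts the slide difference of -1.87, measured with replicate 3 of 3 h. The processed signal moved the median of all probes at 24 h from -0.18 to 0.0037 and cyclic loess moved it to -0.07. With the processed signal the share of calls that were higher was 56.5% at 24 h and 45.6% at 5 min, against 44.4% and 32.9% in the main settings. With slide as a fixed term that share was 90.5% at 24 h, and as a random block 55.1%.

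The replicate block over all groups called 596, 475 and 3450 probes, with 5 of the 5 circles called at 5 min and at 24 h. In fits of sham and 1 other group, added after seeing the data, the replicate block called 0 probes at 5 min by limma (3467 at an unadjusted p under 0.05), 494 at 3 h and 3723 at 24 h, with 5 of the 5 circles called at 24 h. Of the 5 circles, the other circles of Gm20754 and those of the gene lists, it changed a call at 24 h for mmu_circRNA_35587 and for no other. With 1 array of 3 h on slide 2, the slide difference rests on a single sample, and the 24-h group shares no slide with sham.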
